A study of Homo sapiens with 12 samples.

Results

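The 10 genes described here write, erase and read N6-methyladenosine (m6A), a methyl mark on adenosines of RNA. They are the writer subunits METTL3, METTL14 and WTAP, the erasers FTO and ALKBH5, and the YTH domain readers YTHDF1, YTHDF2, YTHDF3, YTHDC1 and YTHDC2. The members were chosen by gene symbol, with earlier results of these data known, from the 58174 genes that each of the 2 deposited tables lists. All 10 were found, and all 10 passed the filter on low values in both cell lines.

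Poly-A-enriched RNA was sequenced 72 h after siRNA transfection of 2 tumor cell lines, Hep-G2 (HepG2 in the labels), which comes from a hepatoblastoma, and BE(2)-C, which comes from a neuroblastoma. In each cell line, cells with the control siRNA (siC) are compared with cells that received siRNAs directed against IGF2BP1 (siI1). Each group has 3 libraries, 12 in all, and both groups of a cell line were harvested at the same time after transfection. The comparison asks how the transcripts of the m6A machinery stand once IGF2BP1, itself described as a reader of m6A, is depleted, and whether the cell lines differ in this. Several features limit these groups as models: the knockdown used a pool of siRNAs, so the effects of its single members cannot be told apart, the control siRNA is based on a worm microRNA (cel-miR-239b), the siRNA concentration was higher in BE(2)-C, and each tumor type is represented by 1 established line.

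In most messenger RNAs, m6A is placed in the nucleus by a complex in which METTL3 carries the catalytic activity, METTL14 helps to hold the RNA, and WTAP connects the enzyme with further subunits. FTO and ALKBH5, dioxygenases that need iron and 2-oxoglutarate, can remove the mark. Proteins with a YTH domain bind the methylated base and act on splicing, export, translation and decay of the RNA.

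The values are FPKM (fragments per kilobase of gene length, scaled to the depth of the library), taken from the deposited tables. The reads assigned to genes numbered 12852988 to 15721210 per library, with 13465944 to 15176939 in Hep-G2 siC, 13398903 to 14858343 in Hep-G2 siI1, 12852988 to 14662575 in BE(2)-C siC and 13649325 to 15721210 in BE(2)-C siI1. Changes are given as the log2 fold change of siI1 over siC on log2(FPKM + 0.1), where genes of low value show less change than they had, with the standard error (SE) and the limma p-value adjusted over all tested genes. A gene is called, or said to have risen or fallen, where this adjusted p is below 0.05. On simulated data the fit made more false calls than this threshold stands for and missed most of the smaller changes simulated. Far fewer genes were given a change there than are called in these data, so these shares may not carry over. Calls of small changes close to the threshold are still uncertain. The replicates are separate samples as labeled, and the p-values measure the spread between these samples. With 3 libraries on each side, the smallest two-sided p of an exact permutation test is 0.1, so single genes rest on the fit across all genes. In bulk RNA such as this, fewer cells with a transcript and less of it per cell cannot be told apart.

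The cell lines carried their markers. The 6 liver and hepatoblast markers (ALB, AFP, APOA1, TTR, APOB and FGB) summed to between 6668 and 6762 FPKM in the Hep-G2 siC libraries and to 10870, 12200 and 12340 FPKM in the siI1 libraries, with ALB the most abundant, against at most 0.208 FPKM in BE(2)-C. The list did not move as one with knockdown: ALB (log2 fold change 0.95), APOA1 (1.70) and FGB (0.35) rose, AFP (-0.59) and TTR (-0.77) fell, and APOB (-0.43, adjusted p = 0.055) was not called. Of the neuroblastoma markers, MYCN had 1688, 1620 and 1671 FPKM (siC) against 1880, 1855 and 1955 FPKM (siI1) in BE(2)-C, without overlap but not called (log2 fold change 0.19, adjusted p = 0.057), and at most 0.0792 FPKM in Hep-G2. GATA3 lay between 55.2 and 59.6 FPKM in BE(2)-C, with overlapping groups, against at most 0.023 FPKM in Hep-G2. PHOX2A (264 to 387 FPKM), HAND2 (168 to 291 FPKM) and DBH (203 to 307 FPKM) were also high in BE(2)-C, each lower with siI1 than with siC, and the part of these markers in the members' results was not tested. Of the blood markers PTPRC, CD3E and HBB, chosen as genes that neither culture should hold, the sum in Hep-G2 was 0.0227, 0 and 0 FPKM with siC and 0.988, 0.233 and 0.353 FPKM with siI1. In that list HBB was the most abundant in the Hep-G2 siI1 libraries, with 0 FPKM in each siC library and 0.753, 0.233 and 0.317 FPKM, at most 12 reads, in the siI1 libraries. The blood list in BE(2)-C summed to 0 in each siC library and to 0.0455, 0.06 and 0.0506 FPKM in the siI1 libraries, and PTPRC was at 0 throughout. The summed levels of the liver list, through ALB and APOA1, and of the blood list were thus higher in the Hep-G2 siI1 group, and their part in the members' results was not tested.

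Hep-G2 siI1 replicate 1 stands apart from the other libraries. Between libraries of a group, the squared differences in reads per gene over their counting error (chi-square per degree of freedom) came to 13.8 and 14.3 for this library against siI1 replicates 2 and 3, while all other pairs within groups lay between 1.98 and 7.31. It also has the lowest liver marker sum and the highest HBB value of its group. The Hep-G2 log2 fold changes of the members and of the called genes named from the lists are therefore also given without it, while ratios and shares are given for single libraries or as means with it. The sums of FPKM over all genes also differed between the Hep-G2 groups, from 252616 to 264612 with siC and from 273699 to 300505 with siI1, so that scaling each library to an equal sum moved the median log2 fold change of all Hep-G2 genes from 0.0069 to -0.15. With equal sums 5839 Hep-G2 genes were lower and 3206 higher, against 4463 and 4250 with the deposited scaling, and directions that rest on the scaling are named below.

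IGF2BP1 (ENSG00000159217, hg38 chr17:48997385-49056145, plus strand), the targeted gene, encodes an oncofetal RNA-binding protein that stabilizes many mRNAs. The Hep-G2 control libraries had 48.6, 46.6 and 50.8 FPKM of it, and the siI1 libraries 12.6, 10.7 and 10.7 FPKM. BE(2)-C had 21.3, 20.7 and 21.6 FPKM with siC and 4.85, 4.75 and 4.87 FPKM with siI1. Each siI1 library lay far below each siC library of its line, so the labels hold. IGF2BP1 fell in Hep-G2 (log2 fold change -2.10, SE 0.079, adjusted p = 7.8e-06, 1298 to 6866 reads per library) and by nearly the same measure in BE(2)-C (-2.11, SE 0.048, adjusted p = 1.5e-05, 611 to 2786 reads). Without Hep-G2 siI1 replicate 1 the value was -2.18.

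In Hep-G2, knockdown went with less FTO, WTAP, METTL3, YTHDF2, YTHDC1 and YTHDC2 mRNA and with more ALKBH5 mRNA. FTO, a demethylase of m6A, changed the most, to a fold of 0.508 of control (log2 fold change -0.98, SE 0.13, n = 3 libraries per group), followed by WTAP at 0.669 (-0.58, SE 0.060). ALKBH5, the other demethylase, reached a fold of 1.305 (0.38, SE 0.075). The writer METTL14 and the reader YTHDF1 had nearly equal levels in both groups. Of the 10 members, 6 fell, 1 rose and 3 were not called, with a median log2 fold change of -0.26, against 0.0069 over all tested genes and -0.042 over the protein-coding ones.

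IGF2BP1 knockdown in Hep-G2 moved a large part of the transcriptome, and the 7 called members are read against that: 44.8% of the 19436 tested genes were called, 23% lower and 21.9% higher, and 55.9% of the 12823 protein-coding ones, 30.5% lower and 25.3% higher. The 7 called members of 10 lie above these shares, but 4 of the 7 calls, those of METTL3, YTHDF2, YTHDC1 and YTHDC2, were each lost without some library, so nothing is read from the count. That 6 of 10 were lower is read against the 30.5% of protein-coding genes, but the list was not tested, and those 4 calls are among the 6. The members' count was 7 without siI1 replicate 1 and fell to 4 without siC replicate 1, siC replicate 3, siI1 replicate 2 or siI1 replicate 3. It was 4 with a constant prior variance and 3 with median centring of the libraries or at an adjusted p below 0.01.

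In BE(2)-C, knockdown went with less FTO, METTL3 and WTAP mRNA, as in Hep-G2, and with more YTHDF2 and YTHDF3 mRNA. FTO again changed the most, to a fold of 0.58 of control (log2 fold change -0.79, SE 0.097, n = 3 libraries per group), and METTL3, the catalytic writer, followed at 0.797 (-0.33, SE 0.073). The cytoplasmic readers YTHDF2 and YTHDF3 stood at folds of 1.12 (0.16, SE 0.049) and 1.19 (0.25, SE 0.075). Of the 10 members, 3 fell, 2 rose and 5 were not called, with a median log2 fold change of 0.040, against 0.016 over all tested genes and -0.015 over the protein-coding ones.

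Among all 18656 genes tested in BE(2)-C, 28.2% were called, 14.8% lower and 13.3% higher, and 35.4% of the 12600 protein-coding ones, 19.9% lower and 15.5% higher. The 5 called members of 10 lie above these shares, but 4 of the 5 calls, all except that of FTO, were lost in at least 2 of the 6 fits that leave out 1 library, so nothing is read from the count. It was 3 without siC replicate 3 or siI1 replicate 2, 2 without siC replicate 1 or siC replicate 2, and 1 without siI1 replicate 1 or siI1 replicate 3. The number of all called genes, 5252, came to 3487 without siI1 replicate 2 and to 3431 without siI1 replicate 3.

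**Figure D1:**
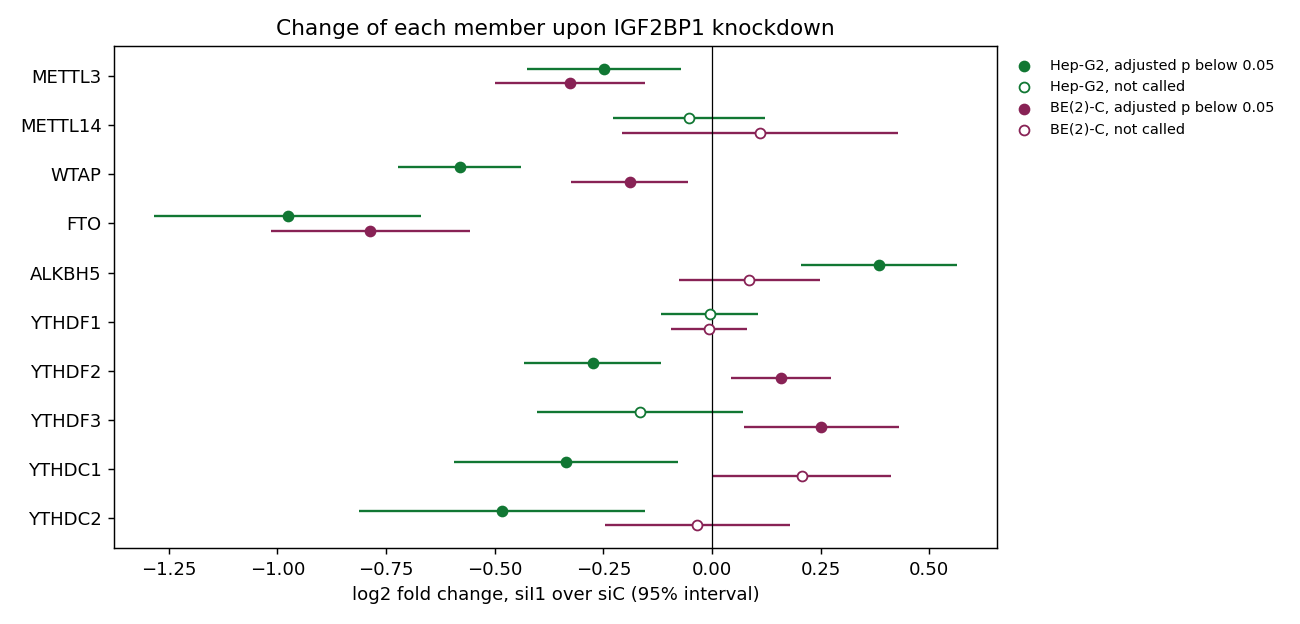
Log2 fold change of siI1 over siC for each member (horizontal axis), with the 95% interval from limma as a line, in Hep-G2 (green) and BE(2)-C (purple), where filled points have an adjusted p below 0.05 and open points do not. FTO lies at -0.98 and -0.79 and WTAP at -0.58 and -0.19, while YTHDF2 lies on opposite sides of 0, at -0.27 and 0.16.

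The cell lines differed most clearly in WTAP, YTHDF2 and YTHDC1, each with a lower log2 fold change in Hep-G2 than in BE(2)-C. The test of the difference (Hep-G2 minus BE(2)-C) called 5 of the 10 members, 4 with Hep-G2 below BE(2)-C and ALKBH5 with Hep-G2 above. That share is close to the share of protein-coding genes called (49.9%, and 40.2% of all 15362 genes tested in both lines). The list was not tested as a group, and nothing is read from the count. FTO, METTL3, METTL14 and YTHDF1 gave no call of a difference, with estimates of -0.19 (95% interval -0.52 to 0.14), 0.078 (-0.15 to 0.31), -0.16 (-0.50 to 0.18) and 0.0015 (-0.12 to 0.12). The difference of YTHDC2, -0.45 (-0.83 to -0.071), had an adjusted p of 0.057.

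Of these differences, those of WTAP, YTHDF2 and YTHDC1 were called in each of the 12 fits that leave out 1 library. The count of 5 members was 6 without Hep-G2 siC replicate 2 or siI1 replicate 1. It was 3 without Hep-G2 siC replicate 3, siI1 replicate 2 or siI1 replicate 3. The count was also 3 without BE(2)-C siC replicate 1, siI1 replicate 1 or siI1 replicate 2. At an adjusted p below 0.01 it was 2.

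**Figure D2:**
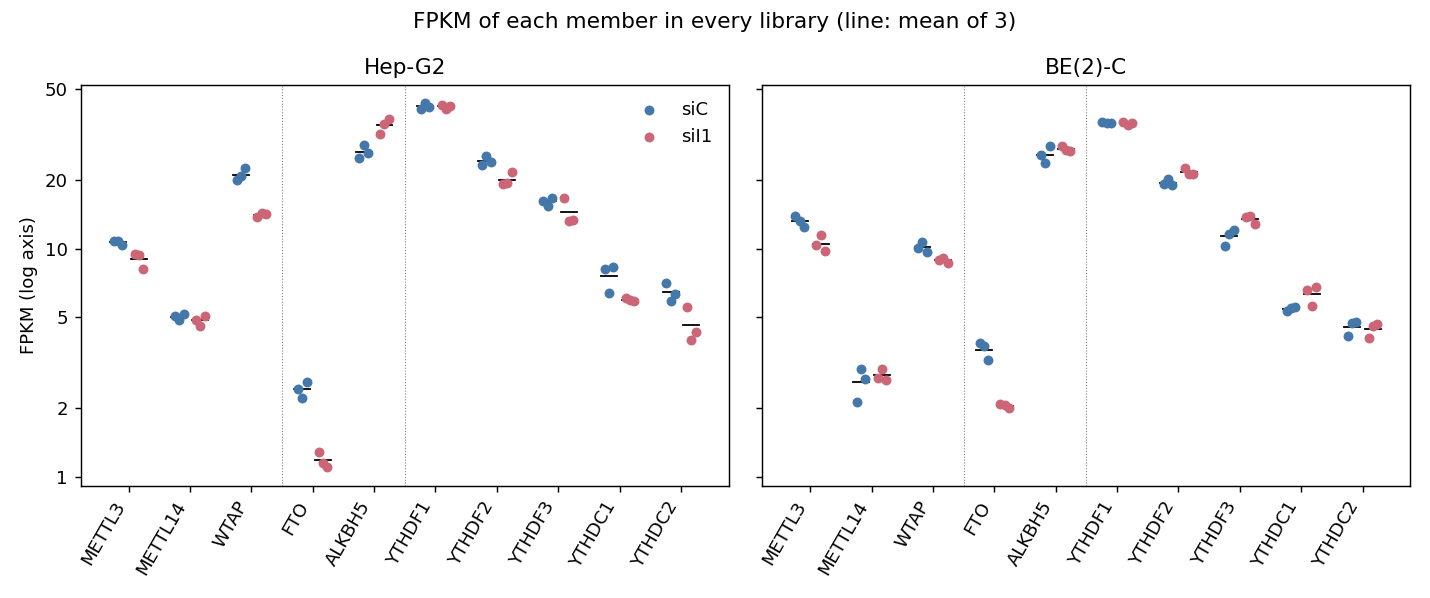
FPKM of each member (vertical log axis) in every library of Hep-G2 and BE(2)-C, siC in blue and siI1 in red, with the mean of 3 libraries as a short line and dotted lines between writers, erasers and readers. YTHDF1 has the highest level in each group, and the siI1 points of FTO lie below its siC points in both cell lines.

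Writers. METTL3 (ENSG00000165819, hg38 chr14:21498133-21511342, minus strand) had 10.8, 10.8 and 10.4 FPKM in the Hep-G2 siC libraries and 9.42, 9.38 and 8.12 FPKM in the siI1 libraries. Its BE(2)-C values were 13.9, 13.3 and 12.5 with siC and 10.4, 11.4 and 9.76 with siI1. The groups did not overlap in either line, with each siI1 library below each siC library. METTL3 fell in Hep-G2 (log2 fold change -0.25, SE 0.074, adjusted p = 0.031) and in BE(2)-C (-0.33, SE 0.073, adjusted p = 0.017), on 640 to 988 and 799 to 1172 reads per library. Without Hep-G2 siI1 replicate 1 the value was -0.29 (adjusted p = 0.019). The Hep-G2 call was lost without siC replicate 1 (-0.24), siC replicate 2 (-0.24), siC replicate 3 (-0.27) or siI1 replicate 3 (-0.18) with median centring (-0.16) and with a constant prior variance, and over its 17 alternatives the adjusted p ran from 0.011 to 0.14. The BE(2)-C call was lost without siI1 replicate 1 (-0.32) or siI1 replicate 3 (-0.28), with adjusted p from 0.0004 to 0.056 over the alternatives.

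METTL14 (ENSG00000145388, hg38 chr4:118685392-118715433, plus strand), the RNA-binding partner of METTL3, lay between 4.85 and 5.15 FPKM with siC and between 4.59 and 5.07 FPKM with siI1 in Hep-G2. METTL14 in BE(2)-C lay between 2.13 and 2.97 FPKM with siC and between 2.65 and 2.98 FPKM with siI1. The groups overlapped in both lines, and METTL14 was not called in Hep-G2 (log2 fold change -0.053, adjusted p = 0.6) or in BE(2)-C (0.11, adjusted p = 0.59). Without siI1 replicate 1 the Hep-G2 value was -0.058. Both signs rest on single settings, since the Hep-G2 value was 0.038 with median centring and the BE(2)-C value -0.019 without siC replicate 1. METTL3 thus had a lower ratio to METTL14 in the siI1 groups. The FPKM ratio of METTL3 to METTL14 was 2.12, 2.22 and 2.02 in Hep-G2 siC and 1.93, 2.04 and 1.60 in Hep-G2 siI1, where the groups overlap at their edges. For BE(2)-C the same ratio was 6.50, 4.47 and 4.68 (siC) against 3.81, 3.83 and 3.69 (siI1), without overlap, although siC replicate 1 is far from the other controls through its low METTL14 value of 2.13. No test of these ratios was made.

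WTAP (ENSG00000146457, hg38 chr6:159725585-159756319, plus strand), the adaptor of the writer complex, had 19.96, 20.83 and 22.45 FPKM in the Hep-G2 siC libraries and 13.7, 14.25 and 14.2 FPKM in the siI1 libraries. For BE(2)-C the values were 10.02, 10.7 and 9.70 FPKM with siC and 8.87, 9.10 and 8.66 FPKM with siI1. No siI1 library reached a siC library in either line, but the gap was wide in Hep-G2 and narrow in BE(2)-C. WTAP fell in Hep-G2 (log2 fold change -0.58, SE 0.060, adjusted p = 0.00033, 1080 to 1930 reads per library), where it was called in all 17 alternatives, with -0.56 without siI1 replicate 1. WTAP also fell in BE(2)-C (-0.19, SE 0.057, adjusted p = 0.047, 701 to 839 reads), but this call was lost without any 1 of the 6 libraries (-0.22 to -0.15), with median centring (-0.15), with equal sums (-0.17), with a constant prior variance and without a filter, and over 17 alternatives the adjusted p ran from 0.033 to 0.15. Between the lines the log2 fold changes differed by -0.39 (SE 0.080, adjusted p = 0.0026), a difference called in all 24 alternatives. WTAP lies within SOD2 on the opposite strand, whose values are given with the other neighbors. Per METTL3, WTAP mRNA was lower after knockdown in Hep-G2, with FPKM ratios of 1.85, 1.93 and 2.16 with siC and 1.45, 1.52 and 1.75 with siI1. That ratio in BE(2)-C lay below 1 in each library, with 0.724, 0.808 and 0.778 with siC and 0.857, 0.797 and 0.887 with siI1, and the groups overlapped.

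METTL3, WTAP and FTO are the members that fell in both cell lines, so the DNA at their starts is shown, from 250 bases before to 50 bases after the start in RefSeq (GRCh38.p14), 5' to 3' on the strand of the gene. Promoters of 9 of the 10 members were matched by symbol, and the chromosome of YTHDF3 was left out of the promoters used. The window of METTL3 is chr14:21511291-21511590 (minus strand), and those of 2 starts of WTAP are chr6:159726867-159727166 and chr6:159727256-159727555 (plus strand). Capitals mark each match, on either strand, to 7 short motifs chosen after the data were seen: the E2F motifs TTTCCCGC and TTTGGCGC, the E-box CACGTG, the GC box GGGCGG, the CCAAT box CCAAT, the NRF1 motif GCATGCGC and the TATA box TATAAA. None of the 7 contains another, and no 2 matches overlap in these windows.
METTL3: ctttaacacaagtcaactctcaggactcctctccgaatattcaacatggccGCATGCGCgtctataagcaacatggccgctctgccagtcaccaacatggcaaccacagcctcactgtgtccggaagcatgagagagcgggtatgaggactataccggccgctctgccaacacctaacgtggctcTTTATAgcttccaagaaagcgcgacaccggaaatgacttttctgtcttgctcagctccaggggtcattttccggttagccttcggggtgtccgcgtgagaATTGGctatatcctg
WTAP 1: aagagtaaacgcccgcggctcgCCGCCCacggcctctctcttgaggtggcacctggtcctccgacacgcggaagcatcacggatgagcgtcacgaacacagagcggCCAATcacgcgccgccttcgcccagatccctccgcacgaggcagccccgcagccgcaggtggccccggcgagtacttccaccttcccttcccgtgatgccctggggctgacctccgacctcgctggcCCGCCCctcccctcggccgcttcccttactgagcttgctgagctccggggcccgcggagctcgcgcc
WTAP 2: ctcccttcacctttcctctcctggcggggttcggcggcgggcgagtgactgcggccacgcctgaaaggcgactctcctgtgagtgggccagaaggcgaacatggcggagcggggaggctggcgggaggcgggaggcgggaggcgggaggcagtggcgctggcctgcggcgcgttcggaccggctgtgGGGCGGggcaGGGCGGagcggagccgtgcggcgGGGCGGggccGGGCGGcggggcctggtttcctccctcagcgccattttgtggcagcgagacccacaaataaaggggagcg

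The METTL3 window holds 1 NRF1 motif, 1 TATA box and 1 CCAAT box, the latter ones read on the opposite strand. Of the 35116 promoters used, 3.05% hold the NRF1 motif, 11.5% the TATA box and 34.6% the CCAAT box. The WTAP windows hold 2 and 4 GC boxes, which 45% of the promoters used hold, and the first of them 1 CCAAT box. Neither E2F motif (1.63% and 0.652% of promoters) nor the E-box (7.26%) occurs in these windows. The GC content is 53% at METTL3 and 70.3% and 73.3% at WTAP, against a median of 58.7% over the promoters used. A match is a description of the letters and not a binding site, and the absence of a match says only that these letters are not in the window.

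Erasers. FTO (ENSG00000140718, hg38 chr16:53701692-54158512, plus strand) had 2.43, 2.21 and 2.60 FPKM in the Hep-G2 siC libraries and 1.29, 1.15 and 1.10 FPKM in the siI1 libraries. BE(2)-C had 3.85, 3.74 and 3.24 FPKM with siC and 2.08, 2.05 and 2.00 FPKM with siI1. In both lines each knockdown library lay clearly below each control library. FTO fell in Hep-G2 (log2 fold change -0.98, SE 0.13, adjusted p = 0.001, 314 to 820 reads per library) and in BE(2)-C (-0.79, SE 0.097, adjusted p = 0.0017, 595 to 1181 reads), and it was called in all 17 alternatives of each line. Without Hep-G2 siI1 replicate 1 its value was -1.04. In Hep-G2, 8.14% of the protein-coding genes, and in BE(2)-C 3.93%, had a log2 fold change at or below that of FTO. No difference between the lines was called (-0.19, SE 0.15, adjusted p = 0.34).

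ALKBH5 (ENSG00000091542, hg38 chr17:18183078-18209954, plus strand), a mainly nuclear demethylase, had 24.9, 28.3 and 26.4 FPKM in the Hep-G2 siC libraries and 31.8, 35.2 and 36.9 FPKM in the siI1 libraries. ALKBH5 in BE(2)-C had 25.7, 23.6 and 28.1 FPKM with siC and 28.2, 27.1 and 26.8 FPKM with siI1. The Hep-G2 groups did not overlap, with each siI1 library higher, while the BE(2)-C groups did. ALKBH5 rose in Hep-G2 (log2 fold change 0.38, SE 0.075, adjusted p = 0.006, 1231 to 1637 reads per library) and was called in all 17 alternatives, with 0.44 without siI1 replicate 1 and 0.22 with equal sums. It was not called in BE(2)-C (0.086, SE 0.068, adjusted p = 0.4). Between the lines ALKBH5 differed by 0.30 (SE 0.11, adjusted p = 0.044), yet this call was lost in 9 of the 12 fits without 1 library, all but those without Hep-G2 siC replicate 2, Hep-G2 siI1 replicate 1 and BE(2)-C siC replicate 2, where over the 12 the difference ran from 0.23 to 0.36, with equal sums (0.11), with a constant prior variance and without a filter. The adjusted p of the difference ran from 0.0093 to 0.33 over 24 alternatives.

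Since FTO fell while ALKBH5 rose in Hep-G2 and was not called in BE(2)-C, the FPKM ratio of ALKBH5 to FTO was higher after knockdown in each line. Hep-G2 ratios were 10.3, 12.8 and 10.1 (siC) against 24.7, 30.7 and 33.6 (siI1). BE(2)-C ratios were 6.69, 6.30 and 8.69 with siC and 13.6, 13.2 and 13.4 with siI1. The groups are well apart in both lines, and a ratio within a library does not depend on how libraries are scaled. This ratio and that of WTAP to METTL3 were chosen after the data were seen and are descriptions with no test.

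**Figure D3:**
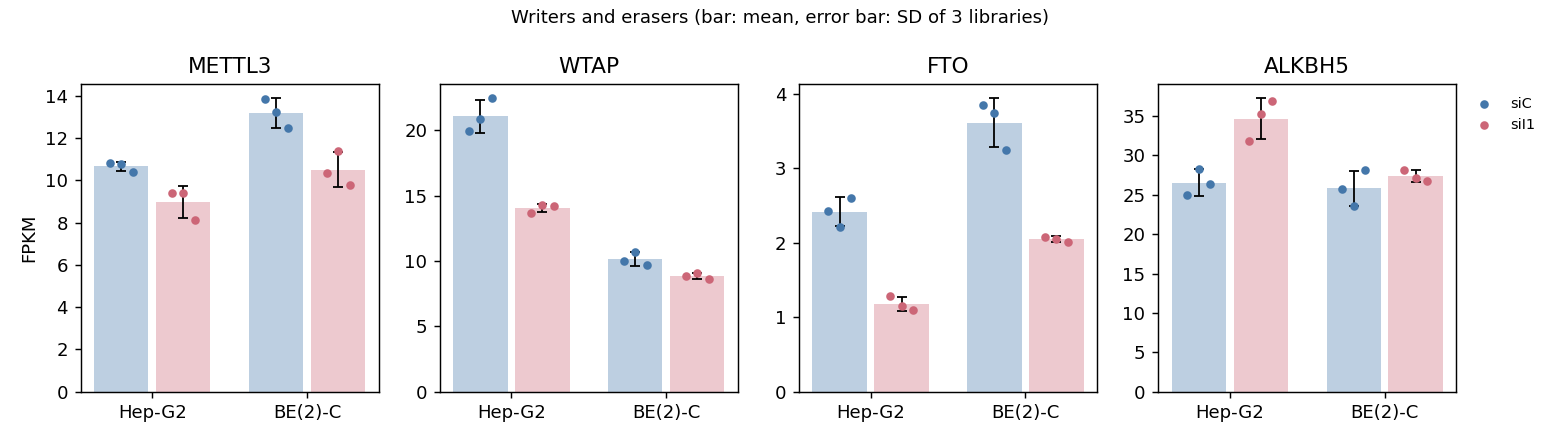
FPKM of METTL3, WTAP, FTO and ALKBH5 (vertical axes) in both cell lines, with bars for the mean and error bars for the SD of 3 libraries, points for the libraries, siC in blue and siI1 in red. The means with siC and siI1 are 2.41 and 1.18 (Hep-G2) or 3.61 and 2.05 (BE(2)-C) for FTO, and 26.5 and 34.7 (Hep-G2) or 25.8 and 27.4 (BE(2)-C) for ALKBH5.

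The window at the start of FTO, chr16:53703906-53704205 (plus strand, GRCh38.p14, RefSeq), is shown because FTO begins head to head with RPGRIP1L, a gene of the ciliary transition zone on the opposite strand. The starts lie 297 bases apart, and capitals mark the 204 bases that both promoter windows share. The FTO window holds none of the 7 motifs, and its GC content is 60%.
FTO: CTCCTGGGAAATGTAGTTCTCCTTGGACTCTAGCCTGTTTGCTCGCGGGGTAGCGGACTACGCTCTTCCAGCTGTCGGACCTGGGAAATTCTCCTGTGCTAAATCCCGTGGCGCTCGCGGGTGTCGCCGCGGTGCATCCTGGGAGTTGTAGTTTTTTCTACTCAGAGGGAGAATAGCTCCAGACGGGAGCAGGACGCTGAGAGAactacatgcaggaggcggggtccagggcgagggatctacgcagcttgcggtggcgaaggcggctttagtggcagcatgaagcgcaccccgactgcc

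RPGRIP1L did not follow FTO in BE(2)-C. BE(2)-C controls held 0.851, 1.10 and 1.10 FPKM of it and the knockdown libraries 1.70, 1.77 and 1.70 FPKM, on 157 to 338 reads per library. The BE(2)-C groups did not overlap, and RPGRIP1L rose there (log2 fold change 0.72, SE 0.14, adjusted p = 0.01), also without any 1 library (0.60 to 0.77). In Hep-G2 it had 1.22, 1.16 and 1.10 FPKM with siC and 1.27, 0.897 and 0.995 FPKM with siI1. These groups overlapped through siI1 replicate 1 alone, the library that stands apart, and RPGRIP1L was not called there (-0.14, SE 0.17, adjusted p = 0.56). The shared start region thus lies between a gene that fell and a gene that rose in BE(2)-C. The annotation (GENCODE v44) has the 2 genes overlap by 2247 bases, and METTL3 overlaps by 1043 bases with TOX4, a nuclear HMG-box protein gene on the other strand. TOX4, whose groups did not overlap in either line, fell in Hep-G2 (-0.19, SE 0.051, adjusted p = 0.019) and in BE(2)-C (-0.37, SE 0.073, adjusted p = 0.01), with the Hep-G2 call lost without siC replicate 1 (-0.20), siC replicate 2 (-0.18), siC replicate 3 (-0.20) or siI1 replicate 2 (-0.17). The largest overlap is that of WTAP, which lies over all its 30735 bases within SOD2, the gene of mitochondrial superoxide dismutase on the opposite strand. SOD2, matched by symbol because its identifier differs between the annotation and the tables, had 16.76, 16.98 and 16.78 FPKM (siC) against 12.97, 12.64 and 12.62 FPKM (siI1) in Hep-G2, on 3202 to 4940 reads per library. As WTAP did, it fell there without overlap (-0.40, SE 0.047, adjusted p = 0.00059), also without any 1 library (-0.41 to -0.39), and it was not called in BE(2)-C (-0.064, adjusted p = 0.66), with a called difference of -0.34 (adjusted p = 0.014, called without any 1 library). The libraries are strand-specific, but the strand setting of the counting is not given in the sources used here, so how far WTAP, FTO and METTL3 share reads with these neighbors is uncertain. Of 10 annotated genes that overlap a member, 9 are listed in the tables and 4 were tested, the last being ENSG00000266677, a long noncoding RNA gene across from ALKBH5, with no call (0.66, adjusted p = 0.3 in Hep-G2 and 0.23, adjusted p = 0.59 in BE(2)-C) on at most 20 reads.

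Cytoplasmic readers. YTHDF1 (ENSG00000149658, hg38 chr20:63195429-63216139, minus strand), described as a reader that aids translation, lay between 41.0 and 43.4 FPKM with siC and between 41.0 and 42.7 FPKM with siI1 in Hep-G2. For BE(2)-C the range was 35.4 to 36.0 FPKM with siC and 34.9 to 36.0 FPKM with siI1. The groups overlapped in each line, and YTHDF1 was not called, with a log2 fold change of -0.005 (95% interval -0.12 to 0.11, adjusted p = 0.94) in Hep-G2 and of -0.0065 (-0.094 to 0.081, adjusted p = 0.92) in BE(2)-C. Without siI1 replicate 1 the Hep-G2 value was -0.018. The sign of such small values rests on the scaling: median centring gave 0.088 (Hep-G2) and 0.033 (BE(2)-C), and equal sums gave 0.013 in BE(2)-C and, in Hep-G2, a called value of -0.17 (adjusted p = 0.044, with 0.044 to 0.96 over 17 alternatives). The latter is near the shift of -0.15 that equal sums give to the median of all Hep-G2 genes.

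YTHDF2 (ENSG00000198492, hg38 chr1:28736621-28769775, plus strand), the reader that brings methylated mRNA to the CCR4-NOT deadenylase, had 23.2, 25.4 and 24.1 FPKM in the Hep-G2 siC libraries and 19.1, 19.5 and 21.6 FPKM in the siI1 libraries. YTHDF2 in BE(2)-C had 19.2, 20.2 and 18.9 FPKM with siC and 22.6, 21.3 and 21.1 FPKM with siI1. The groups did not overlap in either line, but siI1 lay below siC in Hep-G2 and above it in BE(2)-C. YTHDF2 fell in Hep-G2 (log2 fold change -0.27, SE 0.066, adjusted p = 0.014, 997 to 1392 reads per library) and rose in BE(2)-C (0.16, SE 0.049, adjusted p = 0.0499, 997 to 1350 reads). The difference between the lines, -0.43 (SE 0.083, adjusted p = 0.0016), was called in all 24 alternatives, and no scaling alternative reversed a direction. Without siI1 replicate 1 the Hep-G2 value was -0.24, still called, while the call was lost without siC replicate 2 (-0.24), without siI1 replicate 2 (-0.25) and with median centring (-0.18), with adjusted p from 0.00068 to 0.057 over 17 alternatives. The BE(2)-C call, just under the threshold, was lost in 12 of 17 alternatives, among them those without any 1 of the 6 libraries (0.13 to 0.19), with a pseudocount of 0.01 (0.16), with voom (0.16), with a constant prior variance and without a filter, and its adjusted p ran from 0.02 to 0.15.

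YTHDF3 (ENSG00000185728), a reader that shares partners with both paralogs, had 16.2, 15.4 and 16.7 FPKM in the Hep-G2 siC libraries and 16.7, 13.2 and 13.4 FPKM in the siI1 libraries. YTHDF3 in BE(2)-C had 10.2, 11.6 and 12.1 FPKM with siC and 13.8, 13.9 and 12.8 FPKM with siI1. The Hep-G2 groups overlapped through siI1 replicate 1 alone, the library that stands apart, and the BE(2)-C groups did not overlap. In Hep-G2 YTHDF3 was not called (log2 fold change -0.17, SE 0.10, adjusted p = 0.22), but without siI1 replicate 1 it fell (-0.28, adjusted p = 0.0054, with 0.0054 to 0.58 over 17 alternatives). It rose in BE(2)-C (0.25, SE 0.075, adjusted p = 0.046, 903 to 1310 reads per library), a call kept without siC replicate 3 (0.30) but lost without any other library (0.18 to 0.29), with a constant prior variance and without a filter, with adjusted p from 0.0046 to 0.13 over 17 alternatives. YTHDF3 thus differed between the lines by -0.42 (SE 0.13, adjusted p = 0.026) and -0.53 without Hep-G2 siI1 replicate 1. It was not called without Hep-G2 siC replicate 3, siI1 replicate 2 or siI1 replicate 3, nor without BE(2)-C siC replicate 1, siI1 replicate 1 or siI1 replicate 2, and over all 12 left-out libraries it ran from -0.53 to -0.35, with adjusted p from 0.0014 to 0.063 over 24 alternatives.

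The 3 YTHDF paralogs bind the same mark, so their balance within each library is given as well. YTHDF1 made up 51.0, 51.5 and 50.6% of the summed YTHDF FPKM in Hep-G2 siC and 54.4, 55.7 and 54.7% in Hep-G2 siI1. In the BE(2)-C libraries its share was 55.1, 52.7 and 53.4% (siC) against 49.7, 49.8 and 51.1% (siI1). The groups did not overlap in either line, and the share moved up in Hep-G2 and down in BE(2)-C although the YTHDF1 level itself was not called in either. The mean share of YTHDF2 was 29.4% (SD 0.702) and 26.3% (SD 1.83) in Hep-G2 and 29.3% (SD 0.781) and 30.7% (SD 0.478) in BE(2)-C, and that of YTHDF3 was 19.6% and 18.8% (Hep-G2, overlapping) or 17.04% and 19.06% (BE(2)-C), siC before siI1 each time. Counted in reads, without division by gene length, YTHDF1 had a mean share of 41.9% with siC against 45.5% with siI1 in Hep-G2, while BE(2)-C gave 44.9% and 41.3%. The shares are descriptions with no test.

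**Figure D4:**
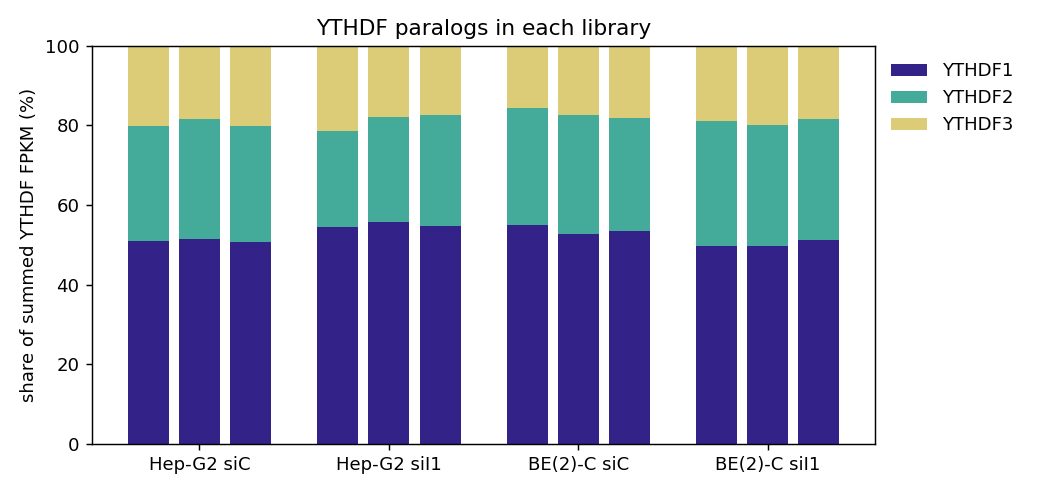
Share of YTHDF1, YTHDF2 and YTHDF3 in their summed FPKM (vertical axis, percent), with 1 stacked bar for each library, grouped by cell line and siRNA. YTHDF1 takes 50.6 to 51.5% in Hep-G2 siC and 54.4 to 55.7% in Hep-G2 siI1, and 52.7 to 55.1% in BE(2)-C siC and 49.7 to 51.1% in BE(2)-C siI1.

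Nuclear reader and helicase reader. YTHDC1 (ENSG00000083896, hg38 chr4:68310387-68350090, minus strand), which acts on splicing and export, had 8.17, 6.38 and 8.26 FPKM in the Hep-G2 siC libraries and 6.05, 5.95 and 5.88 FPKM in the siI1 libraries. YTHDC1 in BE(2)-C had 5.30, 5.50 and 5.53 FPKM with siC and 6.58, 5.57 and 6.81 FPKM with siI1. The groups did not overlap in either line, with siI1 below siC in the Hep-G2 libraries but above it in the others, though siC replicate 2 in Hep-G2 and siI1 replicate 2 in BE(2)-C lay close to the other group. YTHDC1 fell in Hep-G2 (log2 fold change -0.34, SE 0.11, adjusted p = 0.042, 553 to 892 reads per library) and was not called in BE(2)-C (0.21, SE 0.087, adjusted p = 0.12), where it was called without siI1 replicate 2 (0.29) and with voom on the reads (0.21), with adjusted p from 0.039 to 0.32 over 17 alternatives. The Hep-G2 call was kept without siC replicate 2 (-0.46) and lost without any other library (-0.35 to -0.27), among them siI1 replicate 1 (-0.35), with median centring (-0.25), with a constant prior variance and without a filter on low values, with adjusted p from 0.005 to 0.13 over 17 alternatives. The difference between the lines, -0.54 (SE 0.14, adjusted p = 0.011), was called in each of the 12 fits without 1 library (-0.66 to -0.48).

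YTHDC2 (ENSG00000047188, hg38 chr5:113513694-113595285, plus strand), a reader with an RNA helicase domain known from meiosis, had 7.08, 5.91 and 6.34 FPKM in the Hep-G2 siC libraries and 5.56, 3.96 and 4.33 FPKM in the siI1 libraries. Its BE(2)-C values lay between 4.13 and 4.77 FPKM with siC and between 4.06 and 4.65 FPKM with siI1. The Hep-G2 groups did not overlap, with siI1 replicate 1 close to the controls, and the BE(2)-C groups did. YTHDC2 fell in Hep-G2 (log2 fold change -0.48, SE 0.14, adjusted p = 0.027, 623 to 1189 reads per library) and was not called in BE(2)-C (-0.034, adjusted p = 0.82), where the value was 0.0048 with median centring. Without siI1 replicate 1 the Hep-G2 value was -0.62 (adjusted p = 0.0027) and the difference between the lines -0.59, now called. The Hep-G2 call was lost without siC replicate 1 (-0.42), siC replicate 3 (-0.49), siI1 replicate 2 (-0.38) or siI1 replicate 3 (-0.45), with median centring (-0.39) and with a constant prior variance, with adjusted p from 0.0027 to 0.089 over 17 alternatives. The difference was called in 8 of 24 alternatives, among them those without Hep-G2 siI1 replicate 1 (-0.59) or siC replicate 2 (-0.51), with equal sums (-0.63), with voom (-0.46), with the filter at an FPKM of 1, among protein-coding genes and with a normal p from the fits of both lines. Its adjusted p ran from 0.0049 to 0.13 over the 24.

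Levels among the members, on FPKM and so per gene length, spanned a wide range in each group. In Hep-G2 siC the means (SD of 3 libraries) ran from YTHDF1 at 42.1 (1.19) over ALKBH5 at 26.5 (1.70), YTHDF2 at 24.3 (1.11), WTAP at 21.1 (1.26), YTHDF3 at 16.1 (0.665), METTL3 at 10.7 (0.215), YTHDC1 at 7.60 (1.06), YTHDC2 at 6.44 (0.592) and METTL14 at 5.03 (0.155) down to FTO at 2.41 (0.194). Neighbors in this order whose libraries overlap are ALKBH5 and YTHDF2, and YTHDC1 and YTHDC2. In Hep-G2 siI1, YTHDF3 at 14.4 (2.00) stood above WTAP at 14.1 (0.307), with overlap, and METTL14 at 4.85 (0.239) above YTHDC2 at 4.61 (0.838), with overlap. The BE(2)-C order, from a table normalized separately, also began with YTHDF1 at 35.6 (0.349), ALKBH5 at 25.8 (2.27) and YTHDF2 at 19.4 (0.645) in siC. There METTL3 at 13.2 (0.691) stood above YTHDF3 at 11.3 (0.986) and WTAP at 10.1 (0.511), which overlap each other, and FTO at 3.61 (0.326) stood above METTL14 at 2.59 (0.423). In BE(2)-C siI1 the last places were exchanged, with METTL14 at 2.78 (0.176) above FTO at 2.05 (0.0378) and no overlap.

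Around the members, 6 lists hold 41 related genes, not all of which act on m6A of messenger RNA. IGF2BP1 is among them as an m6A reader and is left out of all counts below as the targeted gene. In Hep-G2, 16 of the other 40 fell and 6 rose, with a median log2 fold change of -0.19. Of 39 tested in BE(2)-C, 5 fell and 2 rose, with a median of -0.028, while IGF2BP2, with at most 3 reads there, was not tested. The 22 called genes in Hep-G2 are near the 55.9% of protein-coding genes, and the 7 in BE(2)-C lie below the 35.4%, though this count depends on the setting and nothing is read from it. Without a Hep-G2 library the count of 22 was 9 (siC replicate 1), 12 (siC replicate 3) and 13 (siI1 replicate 2 or siI1 replicate 3), and 24 without siI1 replicate 1. The count of 7 in BE(2)-C was 3 without siI1 replicate 2 or siI1 replicate 3 and 9 without siC replicate 2, and it was 2 with a constant prior variance, 11 with voom on the reads and 12 with adjustment over protein-coding genes. The difference between the lines was called for 17 of 39, beside 49.9% of protein-coding genes.

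Of the 5 partners of the METTL3 and METTL14 complex (KIAA1429, also known as VIRMA, ZC3H13, RBM15, RBM15B and CBLL1), 2 fell and 1 rose in Hep-G2, and limma called 0 of the 5 in BE(2)-C, where 2 had an unadjusted p below 0.05. The RBM15 paralogs, which guide the complex to RNA, went apart in Hep-G2. RBM15 had 3.48, 3.21 and 3.17 FPKM with siC and 2.14, 2.22 and 2.66 FPKM with siI1 there, without overlap (log2 fold change -0.48, SE 0.11, adjusted p = 0.014). RBM15B had 8.64, 9.03 and 9.08 FPKM with siC and 14.5, 14.8 and 15.2 FPKM with siI1, far apart (0.73, SE 0.053, adjusted p = 7.4e-05). Values in BE(2)-C were 0.26 for RBM15 and 0.13 for RBM15B, neither called. Between the lines the difference was -0.73 for RBM15 (SE 0.15, adjusted p = 0.0025) and 0.595 for RBM15B (SE 0.071, adjusted p = 7.2e-05), both called without any 1 library. The RBM15 call in Hep-G2 was lost without siC replicate 1 (-0.44).

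Of 6 other methyltransferase genes that act on adenosine or aid such enzymes (METTL16, METTL5, TRMT112, ZCCHC4, PCIF1 and METTL4), 3 fell and 1 rose in Hep-G2, and limma called 0 in BE(2)-C, where 2 had an unadjusted p below 0.05. ZCCHC4, a methyltransferase of ribosomal RNA, fell in Hep-G2 (log2 fold change -0.51, SE 0.12, adjusted p = 0.014), as did METTL4 (-0.42, SE 0.13, adjusted p = 0.035). Their BE(2)-C values were -0.095 and 0.089. The call of ZCCHC4 was lost without siC replicate 3 (-0.49), and that of METTL4 without siC replicate 1, 2 or 3 or siI1 replicate 1 or 3 (-0.45 to -0.36). METTL4 also had a called difference between the lines (-0.51, SE 0.17, adjusted p = 0.031), but not without Hep-G2 siC replicate 1 (-0.46) or siI1 replicate 3 (-0.51) or BE(2)-C siC replicate 1 (-0.46) or siI1 replicate 2 (-0.46). S-adenosylmethionine, the methyl donor, is made by MAT2A with its regulator MAT2B, and AHCY clears the product of the reaction. MAT2A fell in Hep-G2 (-0.19, SE 0.051, adjusted p = 0.023) and AHCY rose (0.20, SE 0.068, adjusted p = 0.049), though AHCY stood at 0.035 with equal sums, and both calls were lost without siC replicate 1, 2 or 3 or siI1 replicate 2 or 3 (-0.20 to -0.17 and 0.16 to 0.23). MAT2A had 0.012 in BE(2)-C and a called difference of -0.20 (SE 0.059, adjusted p = 0.019), lost without Hep-G2 siC replicate 3 (-0.19) or siI1 replicate 2 (-0.18). Of these 3 genes limma called 0 in BE(2)-C, where 1 had an unadjusted p below 0.05.

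The 7 other AlkB homologs tested (ALKBH1, ALKBH2, ALKBH3, ALKBH4, ALKBH6, ALKBH7 and ALKBH8) held 2 that fell and 2 that rose in Hep-G2, while 2 fell in BE(2)-C. ALKBH3, a repair enzyme for alkylated DNA and RNA, had 6.95, 7.92 and 7.06 FPKM with siC and 4.43, 4.57 and 4.35 FPKM with siI1 in Hep-G2. ALKBH3 in BE(2)-C had 5.37, 5.20 and 5.43 FPKM with siC and 4.06, 3.46 and 3.37 FPKM with siI1. It thus fell without overlap in both lines, as FTO did (log2 fold change -0.70, SE 0.077, adjusted p = 0.00044 in Hep-G2 and -0.55, SE 0.088, adjusted p = 0.0047 in BE(2)-C), on 111 to 256 reads per library, and was called without any 1 library. ALKBH8, a tRNA methyltransferase, had 3.02, 2.72 and 2.53 FPKM with siC and 1.43, 1.13 and 1.08 FPKM with siI1 in Hep-G2, well apart (-1.13, SE 0.15, adjusted p = 0.00099). ALKBH8 was not called in BE(2)-C (0.057), and the difference of -1.19 (SE 0.20, adjusted p = 0.00077) was called without any 1 library. ALKBH6 rose in Hep-G2 (0.79, SE 0.23, adjusted p = 0.03) on 30 to 67 reads, a call kept without siC replicate 2 (1.00) but lost without any other library (0.68 to 0.86) and with equal sums (0.65), and ALKBH1 fell in BE(2)-C (-0.21, SE 0.063, adjusted p = 0.0485), a call lost without any 1 of the 6 libraries (-0.25 to -0.18).

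Of 10 other RNA-binding proteins described as m6A readers, 3 fell and none rose in Hep-G2, and of the 9 tested in BE(2)-C 1 fell and 1 rose. IGF2BP3, a paralog of the targeted gene, had 8.41, 8.30 and 9.04 FPKM with siC and 10.99, 10.78 and 10.96 FPKM with siI1 in BE(2)-C. The groups were well apart, and IGF2BP3 rose there (log2 fold change 0.34, SE 0.054, adjusted p = 0.0042), also without any 1 library. In Hep-G2 it was not called (-0.11, SE 0.093, adjusted p = 0.38), and the difference between the lines was -0.45 (SE 0.11, adjusted p = 0.0068). FXR2, a relative of the fragile X protein, fell in Hep-G2 (-0.29, SE 0.077, adjusted p = 0.02), a call lost without siC replicate 1 (-0.27), siC replicate 2 (-0.28) or siI1 replicate 3 (-0.24), and had -0.075 in BE(2)-C.

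The 9 genes that work with YTH proteins (SRSF3, SRSF10, NXF1, CPSF6, CNOT1, RIDA, named HRSP12 in the tables, XRN1, UPF1 and MEIOC) held 5 that fell and 1 that rose in Hep-G2, against 2 that fell and 1 that rose in BE(2)-C. CPSF6, a factor of 3' end processing, went opposite ways, at 12.84, 11.98 and 12.96 FPKM with siC and 11.08, 10.04 and 10.59 FPKM with siI1 in Hep-G2. CPSF6 in BE(2)-C had 13.49, 13.53 and 13.78 FPKM with siC and 15.7, 15.6 and 15.1 FPKM with siI1. Without overlap in either line, CPSF6 fell in Hep-G2 (log2 fold change -0.25, SE 0.063, adjusted p = 0.017) and rose in BE(2)-C (0.18, SE 0.043, adjusted p = 0.02), and the difference of -0.43 (SE 0.073, adjusted p = 0.0007) was called in all 24 alternatives. Each line's own call was lost without 3 libraries, siC replicate 1, siC replicate 3 and siI1 replicate 2 in Hep-G2 (-0.24, -0.23 and -0.21) and siI1 replicates 1, 2 and 3 in BE(2)-C (0.17, 0.18 and 0.20).

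RIDA, described as a bridge between YTHDF2 and an RNase, had 19.4, 17.2 and 16.8 FPKM with siC and 32.2, 35.3 and 38.6 FPKM with siI1 in Hep-G2. The groups were far apart, and RIDA rose (log2 fold change 0.99, SE 0.086, adjusted p = 0.00016), also without any 1 library, whereas YTHDF2 fell. RIDA in BE(2)-C was not called (0.18, SE 0.067, adjusted p = 0.093), and the difference was 0.81 (SE 0.11, adjusted p = 0.00022). XRN1, the cytoplasmic exonuclease that YTHDC2 binds, fell in Hep-G2 (-0.62, SE 0.19, adjusted p = 0.035), a call lost without siC replicate 1 (-0.58), siC replicate 3 (-0.56), siI1 replicate 2 (-0.47) or siI1 replicate 3 (-0.61), and had 0.042 in BE(2)-C. Its difference of -0.66 (SE 0.23, adjusted p = 0.039) was lost in 9 of the 12 fits without 1 library, all but those without Hep-G2 siC replicate 2, Hep-G2 siI1 replicate 1 and BE(2)-C siC replicate 3 (-0.83 to -0.51 over the 12). The helicase UPF1 fell in BE(2)-C (-0.24, SE 0.058, adjusted p = 0.021) and so did the export receptor NXF1 (-0.33, SE 0.080, adjusted p = 0.022). The UPF1 call was lost without siC replicate 3 (-0.25), siI1 replicate 1 (-0.21) or siI1 replicate 3 (-0.23), and the NXF1 call without siC replicate 1 (-0.29), siC replicate 3 (-0.31) or siI1 replicate 2 (-0.28).

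In Hep-G2 UPF1 had 0.0075 and NXF1 -0.15, neither called. UPF1 had a called difference between the lines (0.25, SE 0.076, adjusted p = 0.022), but it was 0.064 with equal sums, and the call was lost without Hep-G2 siC replicate 1 (0.22), Hep-G2 siI1 replicate 3 (0.23) or BE(2)-C siI1 replicate 1 (0.21). For NXF1 no difference was called (0.18, SE 0.11, adjusted p = 0.22). Without siI1 replicate 1, the Hep-G2 values were -0.42 for RBM15, 0.74 for RBM15B, -0.42 for ZCCHC4, -0.36 for METTL4, -0.22 for MAT2A, 0.26 for AHCY, -0.70 for ALKBH3, -1.24 for ALKBH8, 0.73 for ALKBH6, -0.28 for FXR2, -0.28 for CPSF6, 1.05 for RIDA, -0.79 for XRN1 and -0.19 for TOX4, and of these calls those of METTL4 and ALKBH6 were lost. Median centring also ended, with the sign kept, the Hep-G2 calls of METTL4 (-0.33), MAT2A (-0.095), FXR2 (-0.20), CPSF6 (-0.16), XRN1 (-0.53) and TOX4 (-0.10) and the BE(2)-C call of ALKBH1 (-0.17), as well as the called differences of MAT2A (-0.15) and XRN1 (-0.61). A constant prior variance ended the Hep-G2 calls of MAT2A, AHCY, XRN1 and TOX4, the BE(2)-C calls of CPSF6, ALKBH1, NXF1 and UPF1 and the difference of MAT2A. No filter ended those of METTL4, ALKBH6, AHCY and XRN1 in Hep-G2, of ALKBH1 in BE(2)-C and of the difference of XRN1. The call of ALKBH1 was also lost with a pseudocount of 1 (-0.18), equal sums (-0.19) or voom (-0.21), and that of AHCY with a pseudocount of 0.01 (0.20).

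**Figure D5:**
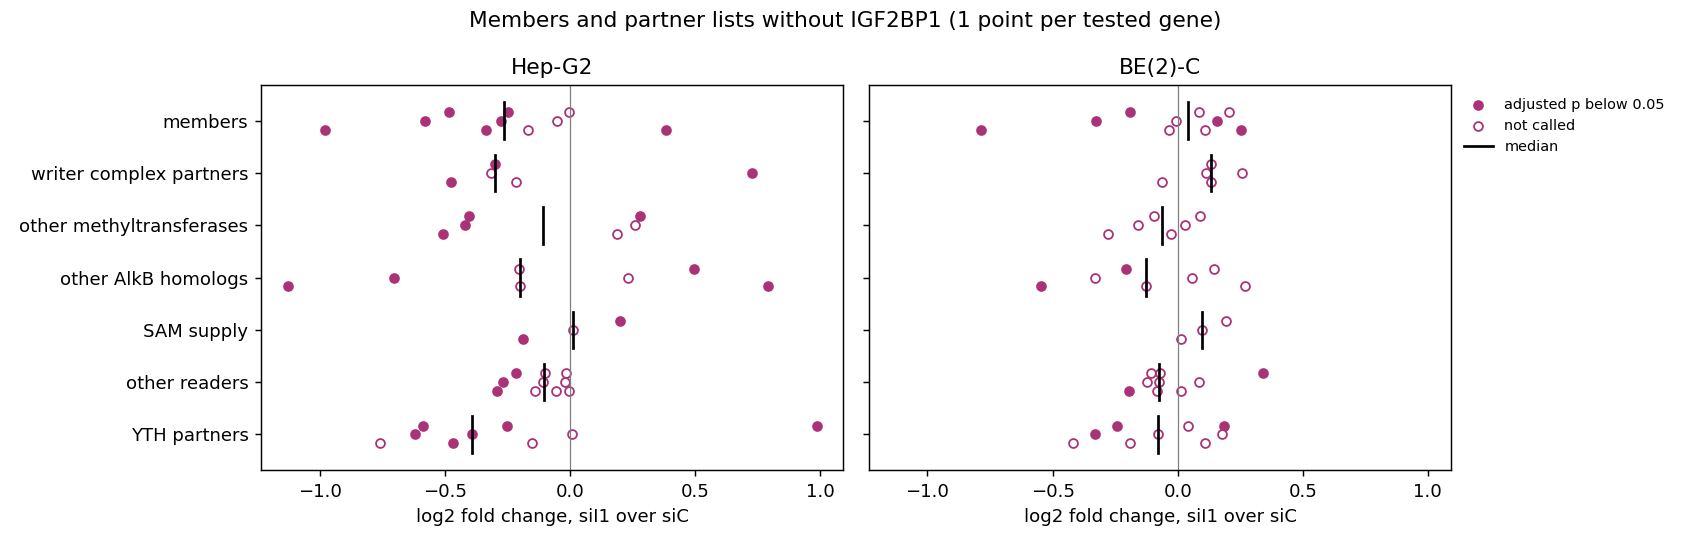
Log2 fold change of siI1 over siC (horizontal axes) for each tested member and each tested gene of the 6 lists without IGF2BP1, in Hep-G2 and BE(2)-C, with 1 point per gene, filled where the adjusted p is below 0.05, and the median of a list as a vertical line. The members' medians lie at -0.26 (Hep-G2) and 0.04 (BE(2)-C), and the partners of YTH proteins have medians of -0.39 and -0.078.

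Features that the choice of members did not use were compared too. The 5 letters GGACT, the sequence in which m6A is most often found, were counted in the longest coding transcript of each gene. They occur at a median of 0.731 per 1000 nt in the members' transcripts, against 0.936 over 14237 genes. The median length of these transcripts is 4424.5 nt for the members and 3432 nt over all, and another transcript of a gene may give another density. METTL3 has the highest density among the members, with 2.02 per 1000 nt, and YTHDF1 the lowest, with 0.313, while FTO has 0.432. Such a count gives the letters and not methylation, and it was made after the data were seen.

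For the 4 members called in both lines, the protein-coding genes most alike in pattern were looked up by Pearson's r over the 12 libraries, among 8694 genes, on log2(FPKM + 0.1) minus the mean of each cell line. The genes most like METTL3 were ESPL1 (r = 0.95) and CDC25C (r = 0.946). SFPQ (r = 0.989) and TPM3 (r = 0.984) were the most like WTAP. HNRNPUL1 (r = 0.991) is given for FTO, and for YTHDF2 MEPCE (r = 0.951) and LANCL2 (r = 0.948). All of these values share the libraries, their scaling and the knockdown, and they describe likeness of pattern alone. MEPCE, for instance, stood at a log2 fold change of -0.52 (Hep-G2) and 0.39 (BE(2)-C), and LANCL2 at -0.42 and 0.26, with the signs of YTHDF2.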

How the data were processed

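Poly-A-enriched RNA of 12 libraries was used, 3 with control siRNA (siC) and 3 with IGF2BP1 siRNAs (siI1) in each of Hep-G2 and BE(2)-C. The submitters' notes name cutadapt 1.14, HISAT2 2.1.0 (build hg38), SAMtools 1.5, featureCounts 1.5.3 and edgeR 3.30.3 as the tools of the authors. The deposited FPKM values were made by the authors from reads per gene, gene length and library sizes scaled by TMM in edgeR, separately for each cell line. The tables also hold the authors' comparison of siI1 with siC (log fold change, p-value and FDR), which was not used.

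Each FPKM value times its gene length was a whole multiple of a step per library for 100% of the values above 0 (tolerance 0.001), which gave back the reads per gene and the depths. These reads served for depth and for 1 alternative fit.

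Members, partner lists and markers were chosen with earlier results of these data known. Named are the members, IGF2BP1, the partners called in both lines and, per list and line, at most the 2 called partners with the largest absolute log2 fold change. For each member called in both lines, the 2 protein-coding genes with the highest Pearson r are named, and so are overlapping neighbors. Some of the genes and markers chosen in this way are not reported here. The alternatives for named partners, TOX4, RPGRIP1L and SOD2, the motifs, the GGACT counts, the capitals in the FTO window and the ratios of ALKBH5 to FTO and of WTAP to METTL3 were added after seeing the data.

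Genes were kept where 3 or more libraries of the cell line reached an FPKM of 0.1, and were fitted on log2(FPKM + 0.1) with limma 3.58.1 (R 4.3.3), with a mean-variance trend, for each cell line alone. The difference between the lines was tested as an interaction contrast over all 12 libraries. P-values are two-sided and adjusted by Benjamini-Hochberg over all tested genes, with 0.05 as the threshold. Alternatives changed the pseudocount (0.01 or 1), the filter (none, or an FPKM of 1), the variance prior (constant), the scaling (median centring or equal sums of FPKM), the model (voom on the reads), the genes tested (protein-coding), the threshold (0.01), the block (replicate number) and the form of the difference test, or left out 1 library. The fit was tested on simulated data, where the first criterion for the share of changes recovered was not met and was loosened afterwards. The smaller of the changes simulated, which were larger than most members' changes, were nearly all missed there. The share of false calls among all calls was well above the nominal rate. Far fewer genes were given a change in the simulation than are called in these data, so these shares may not carry over. Python 3.11.15, NumPy 2.4.6, pandas 2.3.3 and Matplotlib 3.10.9 were also used. Positions are from GENCODE v44 and promoters from RefSeq, while the authors counted on an Ensembl annotation.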

Additional observations from a re-analysis of the deposited data

Results flagged for a closer look

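The test of the difference between the cell lines (Hep-G2 minus BE(2)-C, on the log2 fold changes) called 5 members: WTAP (-0.3904), ALKBH5 (0.2976), YTHDF2 (-0.4336), YTHDF3 (-0.4185) and YTHDC1 (-0.5432). YTHDF2 is the member called in opposite directions, lower in the former line and higher in the latter, where the call was lost in 12 of 17 alternatives. The call was lost without some library for ALKBH5 and YTHDF3, as given above with the libraries, but not for WTAP, YTHDF2 or YTHDC1.

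Among the named partners the same test called RBM15 (-0.7325), RBM15B (0.595), METTL4 (-0.5077), ALKBH8 (-1.185), MAT2A (-0.2004), IGF2BP3 (-0.4518), CPSF6 (-0.4348), RIDA (0.8081), XRN1 (-0.6625) and UPF1 (0.2502). The calls for METTL4, MAT2A, XRN1 and UPF1 were each lost without some library named above. Since 40.2% of all genes tested in both lines were called by this test, a called difference is frequent in these data.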

How the results depend on the processing

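Over the 17 alternatives per cell line, IGF2BP1 was called lower throughout, from -2.26 to -2.00 (Hep-G2) and from -2.14 to -1.93 (BE(2)-C). FTO in both lines, WTAP and ALKBH5 in Hep-G2 and the differences of WTAP and YTHDF2 between the lines were called in each alternative. Over the log2 fold changes of the members, IGF2BP1, named partners, TOX4, RPGRIP1L and SOD2, 589 alternative values kept direction and side of the threshold, 159 kept the direction but lost the call, 4 gained a call and 12 changed sign. For the differences these numbers were 462, 50, 8 and 8. The alternatives for partners, TOX4, RPGRIP1L and SOD2 were chosen after seeing the data.

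With 1 library left out, the called members numbered 4 to 7 in Hep-G2 (7 with all libraries), 1 to 3 in BE(2)-C (5) and 3 to 6 for the difference (5), the called partner genes 9 to 24 (22) and 3 to 9 (7), and all called genes 6851 to 9428 (8713) and 3431 to 4455 (5252). IGF2BP1 ran from -2.18 to -2.06 and from -2.13 to -2.10.

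The members' count was 2 in BE(2)-C without a filter, 4 in Hep-G2 and 2 in BE(2)-C with a constant prior variance, and 3 in Hep-G2 with median centring. The partner count in BE(2)-C was 2 with a constant prior variance, 11 with voom and 12 among protein-coding genes. At an adjusted p below 0.01, called members were 3 in Hep-G2, 1 in BE(2)-C and 2 for the difference, partner genes 7 and 2, and all genes 5721 and 2614. With replicate number as a block, the members' count was 7 (Hep-G2) and 2 (BE(2)-C): the block ended the BE(2)-C calls of WTAP, YTHDF2, YTHDF3, ALKBH1 and UPF1, the Hep-G2 call and the difference of METTL4, and called the difference of YTHDC2. Whether same-numbered libraries are pairs is not known, and with 3 libraries per group their deviations cannot settle it. Same-numbered libraries had deviations correlated at r = 0.329, 0.321 and -0.076 (Hep-G2) or 0.199, -0.02 and 0.02 (BE(2)-C). Libraries of unlike number ran from -0.448 to 0.314 and from -0.14 to 0.12 (11247 and 10961 genes).

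With equal sums of FPKM all Hep-G2 genes had a median of -0.1472, with 5839 lower and 3206 higher (4463 and 4250 as deposited), and with median centring of 0.0896, with 3691 lower and 5024 higher. Signs changed only for values not called with all libraries as deposited. With median centring METTL14 in Hep-G2 was 0.03826, YTHDF1 was 0.08768 (Hep-G2) and 0.03321 (BE(2)-C), and YTHDC2 in BE(2)-C was 0.004757. With equal sums YTHDF1 in BE(2)-C was 0.01347, and the differences of METTL3 and YTHDF1 were -0.1071 and, with a call, -0.1852. Without 1 library, YTHDF1 ran from -0.02325 to 0.01691 in Hep-G2 and from -0.01723 to 0.004424 in BE(2)-C, its difference from -0.01678 to 0.02337, METTL14 in BE(2)-C from -0.01867 to 0.2107 and YTHDC2 in BE(2)-C from -0.09861 to 0.02468. The cause was not tested. WTAP and YTHDF2 in BE(2)-C lost their calls without any 1 library, and of the named partners ALKBH6 rests on the fewest reads in Hep-G2, 30 to 67.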
